A study of Mus musculus with 3 samples.

Results

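Polycomb proteins keep developmental genes silent through a pair of chromatin complexes. Polycomb repressive complex 2 (PRC2) methylates histone H3 at lysine K27, and the trimethylated form, H3K27me3, marks repressed genes. Polycomb repressive complex 1 (PRC1) ubiquitinates histone H2A and, in its canonical form, reads H3K27me3. Demethylases of the Kdm6 family remove the mark. Nearly every subunit is encoded by paralogs that replace each other in the complex, so the paralogs a cell expresses set which assemblies it can build. In skin epithelium, PRC2 and PRC1 are known for repressing the Merkel cell programme and the Cdkn2a locus.

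The genes described here are 31 named parts of PRC1 and PRC2 and the Kdm6 demethylases, found by symbol among 44625 gene entries. All 31 were in the table. They comprise 11 PRC2 genes, 18 PRC1 genes and 2 demethylase genes. RNA was sequenced in 3 libraries. Each came from back skin cells of 56-day-old wild-type mice, taken at the second telogen, a rest phase of the hair cycle, and sorted for integrin alpha6 and against Sca1. The sorting protocol names an antibody to integrin alpha6 and none to Sca1. The labels speak of biological duplicates while there are 3 libraries, so any p-value here measures the spread between these libraries, which may be partly technical. The libraries form 1 group, and no contrast between groups was fitted.

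Depth ranged from 29283936 to 39198620 counts per library. The cells carried follicle stem cell markers: 8 of 8 had a mean of at least 1 TPM (a length-corrected read abundance with the same total in every library), with summed levels of 23323 to 28699 TPM. All 5 basal keratinocyte markers were detected and summed to 19693 to 28990 TPM, and all 5 suprabasal markers to 1648 to 5017 TPM, both lowest in replicate 1. Melanocyte markers summed to 13.1 to 15.5 TPM, with 3 of 5 detected. None of 5 immune, 5 fibroblast and 5 endothelial markers reached 1 TPM, and no library had a count for Lyz2, Lum, Dpt, Cdh5, Emcn or Cldn5. That leaves room for levels of 0.220, 0.134, 0.161, 0.0662, 0.0515 and 0.197 TPM in this order (3 counts in the shallowest library, counting error only). In bulk RNA, fewer cells of a type and less RNA per cell cannot be told apart.

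The promoters of 3 members are shown because Ezh1 led the methyltransferases, Kdm6a was the demethylase gene lower in the authors' comparison, and Bcor alone carried an H3K27me3 value. Each window is the 250 bases before the RefSeq gene start on build GRCm38.p6, at chr11:101226464-101226713 (minus strand) for Ezh1, chrX:12160356-12160605 (minus strand) for Bcor and chrX:18162325-18162574 (plus strand) for Kdm6a, and none of the windows overlaps a gene of the GENCODE annotation. Capitals mark CG dinucleotides, which read the same on both strands and are bound by the CXXC domain of Kdm2b when unmethylated.
Ezh1: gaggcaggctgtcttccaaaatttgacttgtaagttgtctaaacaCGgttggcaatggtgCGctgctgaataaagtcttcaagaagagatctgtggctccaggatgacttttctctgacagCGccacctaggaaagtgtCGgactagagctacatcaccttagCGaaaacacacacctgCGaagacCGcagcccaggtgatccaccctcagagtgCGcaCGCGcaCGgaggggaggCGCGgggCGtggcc
Bcor: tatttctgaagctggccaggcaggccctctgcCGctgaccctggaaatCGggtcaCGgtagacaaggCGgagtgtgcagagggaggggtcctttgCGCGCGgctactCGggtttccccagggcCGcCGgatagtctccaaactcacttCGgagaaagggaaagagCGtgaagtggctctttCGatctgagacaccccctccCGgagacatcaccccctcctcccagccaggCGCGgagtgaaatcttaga
Kdm6a: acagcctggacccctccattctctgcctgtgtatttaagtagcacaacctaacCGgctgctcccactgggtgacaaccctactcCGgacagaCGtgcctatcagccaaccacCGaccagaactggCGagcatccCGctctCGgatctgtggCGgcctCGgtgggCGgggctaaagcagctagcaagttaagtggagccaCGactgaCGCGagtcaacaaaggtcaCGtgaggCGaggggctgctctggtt
CG occurred 14 times in the Ezh1 window, 16 times in that of Bcor and 15 times in that of Kdm6a. Of 32851 promoters of this length, 92.1% held the dinucleotide at all, and 29.4%, 25.4% and 27.3% held at least as many as Ezh1, Bcor and Kdm6a. Over the 27 members with a RefSeq promoter in the table the median was 21, from 1 in Aebp2 to 37 in Suz12, beside a median of 6 over all promoters. Ezh2 had 23, and 25 of the 27 members were at or above the median of all. Cbx2, Pcgf1, Rybp and Kdm6b had no promoter entry. The number in Bcor, the member with the mark, lay below the members' median, as did those in unmarked members such as Ezh1 and Kdm6a.

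Nearly the whole Polycomb machinery was transcribed. Of 31 members, 30 had a mean of at least 1 TPM, a level reached by 30.6% of all entries. Those entries include noncoding genes and pseudogenes, whereas all 31 members are protein-coding, and the share over protein-coding genes alone was not computed. The exception was Phf19, with 0.792, 0.812 and 0.566 TPM in replicates 1, 2 and 3, from 43, 56 and 44 counts. At the other end stood Rbbp7 with 122 ± 13.8 TPM and Phf1 with 102 ± 28.9 TPM (SD, n = 3), at percentiles 92.8 and 91.3 of the 13664 detected entries. The highest and lowest member means thus differed 168-fold.

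**Figure D1:**
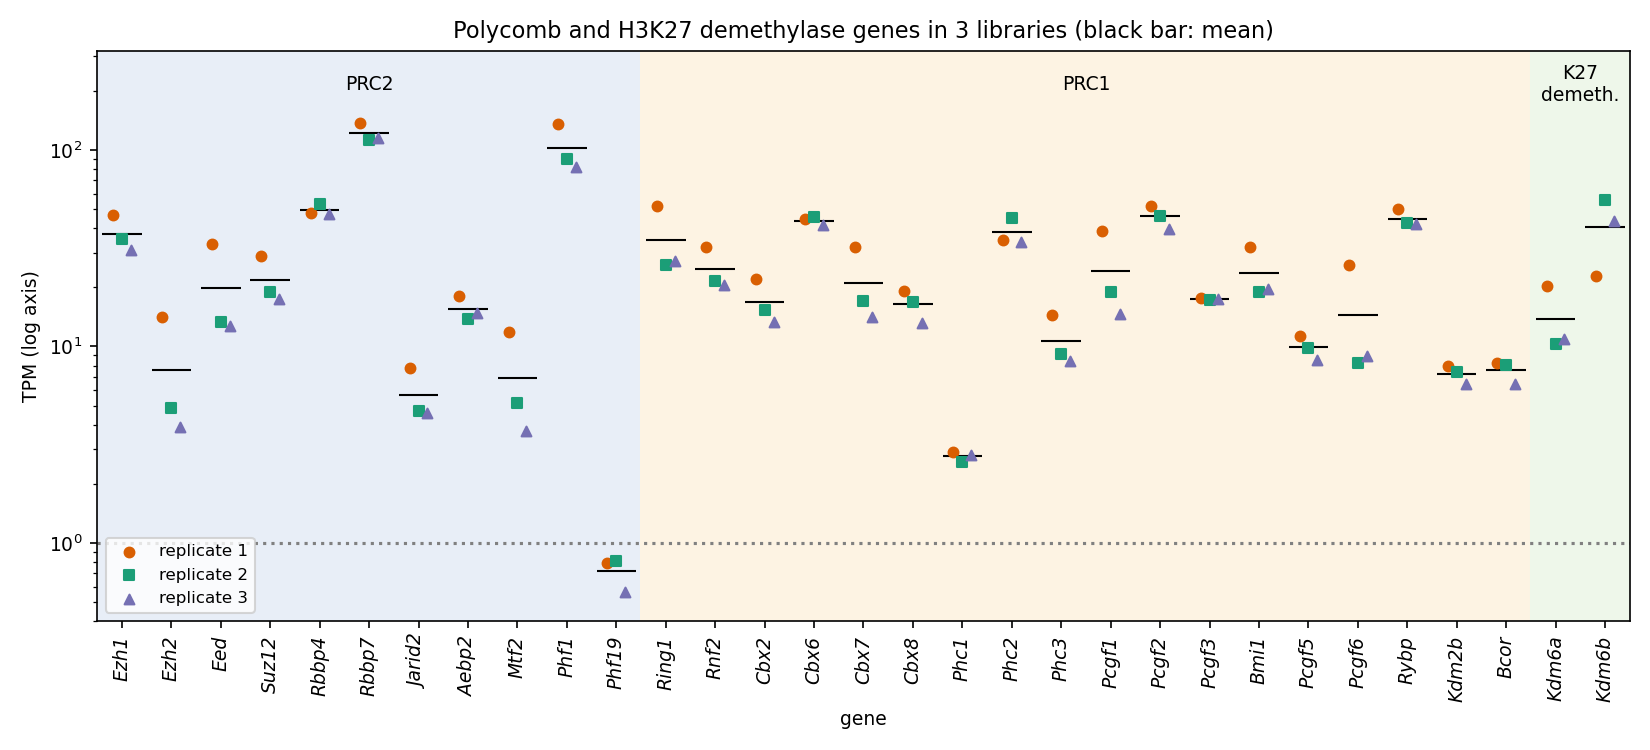
TPM (log axis) of the 31 members in the 3 libraries, grouped by complex, with the mean as a black bar and 1 TPM as a dotted line. Rbbp7 and Phf1 stand at the top, Phf19 alone lies under 1 TPM, and replicate 1 is the highest library for 26 members.

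Ezh1, not Ezh2, supplied most of the methyltransferase transcripts. Ezh1 is associated with non-dividing cells and Ezh2, the more active enzyme, with dividing ones. Ezh1 (chromosome 11, 101191115 to 101226463, minus strand, GRCm38) had 46.4, 35.0 and 30.9 TPM in replicates 1, 2 and 3. Ezh2 (chromosome 6, 47530139 to 47595341, minus strand) had 14.1, 4.87 and 3.91 TPM, from 1016, 445 and 403 counts. The lowest Ezh1 value lay above the highest Ezh2 value. The log2 ratio of Ezh1 to Ezh2 on the TPM + 1 scale was 1.65, 2.62 and 2.70, a mean of 2.32 ± 0.58 (SD, n = 3), or 5.00-fold. The ratio had the same sign in 3 of 3 libraries (two-sided exact sign-flip permutation p = 0.25, the smallest that 3 libraries allow, 0.25 after Benjamini-Hochberg adjustment over the 5 pairs compared). Ezh1 held 76.7%, 87.8% and 88.8% of the summed TPM of both genes. The Ezh2 share was therefore largest in replicate 1, where Ezh2 was 3.22 times the mean of the other libraries while Ezh1 was 1.41 times.

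Of 10 proliferation genes, 8 were highest in replicate 1, the library with the most Ezh2, against 59.6% of all detected entries. Their summed level was 238, 151 and 163 TPM in replicates 1, 2 and 3. Mki67, which marks cycling cells, had 6.71, 1.91 and 2.17 TPM, while Mcm2 and Mcm5, parts of the replicative helicase, were highest in replicate 3, with 9.56, 9.80 and 12.3 TPM for Mcm2. Tyms, a nucleotide synthesis gene, differed less, with 7.56, 6.07 and 6.65 TPM. Pcna, Rrm2 and Mcm5 had the highest means of the list, with 103 ± 38.4, 31.9 ± 5.79 and 14.8 ± 2.36 TPM (SD, n = 3). The part of cycling cells in the Ezh2 level was not tested.

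The core partners of the enzymes, Eed and Suz12, lay below the summed enzymes. Eed, the subunit that binds H3K27me3, had 33.2, 13.3 and 12.7 TPM in replicates 1, 2 and 3. Suz12, the scaffold of the complex, had 28.9, 19.0 and 17.5 TPM. Eed was above Suz12 in replicate 1 and below it in the other libraries, so the order of this pair did not hold beyond the spread (log2 difference of Suz12 over Eed 0.24 ± 0.38, SD, n = 3). Summed Ezh1 and Ezh2 stood at 45.1 ± 13.6 TPM, above Suz12 with 21.8 ± 6.19 and Eed with 19.7 ± 11.7 TPM in every library.

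Rbbp7 outweighed Rbbp4 among the histone chaperones, which PRC2 shares with histone deacetylase complexes. Rbbp7 had 137, 112 and 115 TPM and Rbbp4 had 47.5, 52.9 and 47.2 TPM in replicates 1, 2 and 3. The groups of values did not overlap, and the log2 ratio of Rbbp4 to Rbbp7 was -1.28 ± 0.22 (SD, n = 3, exact sign-flip p = 0.25, 0.25 after adjustment over the 5 pairs), that is 2.43-fold more Rbbp7. This direction rests on division by gene length: Rbbp4 had more counts than Rbbp7 in every library, and in counts scaled to library size alone the log2 ratio was 0.29. Rbbp7 has a processed pseudogene, Gm6382, that is 97.1% identical over 942 bases and held at most 20 counts.

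PRC2 takes on either Jarid2 with Aebp2 or a Polycomb-like protein. Aebp2, a zinc finger protein, had 18.1, 13.8 and 14.8 TPM, and Jarid2, which links PRC2 to ubiquitinated chromatin, had 7.76, 4.68 and 4.59 TPM. Every Aebp2 value lay above every Jarid2 value. The log2 ratio of Jarid2 to Aebp2 was -1.34 ± 0.19 (SD, n = 3, exact sign-flip p = 0.25, 0.25 after adjustment over the 5 pairs).

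Among the Polycomb-like genes, whose proteins bind DNA rich in CG, Phf1 accounted for 93.4% ± 1.82 of the summed TPM (SD, n = 3). Phf1 had 135, 89.7 and 82.1 TPM in replicates 1, 2 and 3. Mtf2 had 11.9, 5.15 and 3.72 TPM and was 14.0-fold below Phf1, with the same order in 3 of 3 libraries. Phf19 came last at 0.723 ± 0.136 TPM (SD, n = 3). All 3 pairs of the family kept their order in every library. The Phf1 level carries a limit: Cuta, transcribed from the opposite strand, overlaps 39.3% of the annotated Phf1 exon bases, and the strand setting of the counting is not given in the sources used here, so reads from the shared stretch cannot be told apart. Cuta had 1603, 2383 and 2200 counts, and its part in the Phf1 level was not tested. The deposited Phf1 length of 2429 bases was shorter than the 3486 exon bases of GENCODE, and with the latter Phf1 still had 102, 67.0 and 61.3 TPM.

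**Figure D2:**
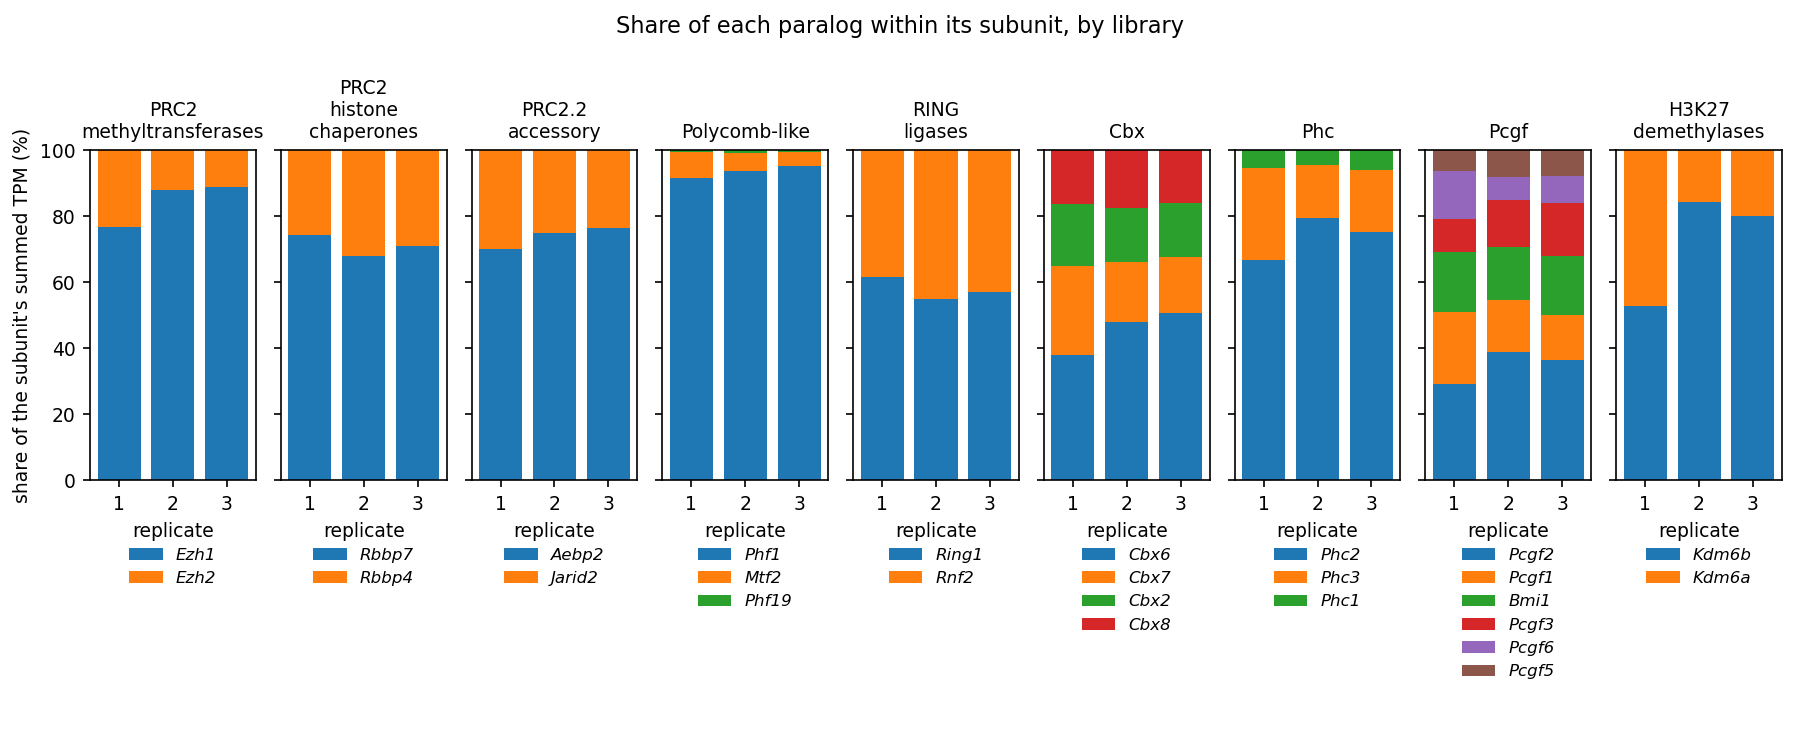
Share (%) of each paralog in the summed TPM of its subunit, 1 bar per library, for 9 subunits. Phf1 and Ezh1 hold the largest shares of their subunits, 93.4% and 84.4% on average, no Pcgf or Cbx gene has a mean share above 45.4%, and the Kdm6b share is 52.8% in replicate 1 against 84.3% and 80.0%.

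Further PRC2 partners from a fixed list were Epop, Lcor and Lcorl. Epop, which joins the Polycomb-like form of PRC2, had 23.2 ± 4.08 TPM, while Lcor and Lcorl, which encode the PALI partners, had 2.33 ± 0.731 and 1.16 ± 0.665 TPM (SD, n = 3). Epop was the only one of the 3 that was lowest in replicate 1.

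In PRC1, Ring1 lay above Rnf2 among the RING ligases, by less than the other tested pairs. Ring1 had 51.6, 26.0 and 27.1 TPM and Rnf2, which encodes RING1B, had 32.2, 21.4 and 20.5 TPM in replicates 1, 2 and 3. Within each library Ring1 was the higher of the pair, but the Ring1 values of replicates 2 and 3 lay below the Rnf2 value of replicate 1. The log2 ratio of Ring1 to Rnf2 was 0.44 ± 0.20 (SD, n = 3, exact sign-flip p = 0.25, 0.25 after adjustment over the 5 pairs). Without division by length it was 0.10, and the same sign no longer held in every library (exact sign-flip p = 0.75).

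The Cbx genes encode the chromodomain readers of canonical PRC1. Cbx6 was highest, with 44.3, 45.5 and 41.5 TPM and 45.4% ± 6.73 of the summed TPM of the 4 members (SD, n = 3). Cbx7, the reader best known from stem cells, had 31.9, 17.0 and 14.1 TPM, with its highest value in replicate 1. Cbx2 had 21.9, 15.4 and 13.4 TPM and Cbx8 had 19.1, 16.8 and 13.2 TPM. Below Cbx6 the order was not resolved: the log2 difference of Cbx7 over Cbx2 was 0.24 ± 0.24 and that of Cbx2 over Cbx8 was 0.03 ± 0.15. The paralogs lie in clusters, Cbx2 and Cbx8 on chromosome 11 (119022962 to 119031270, plus strand, and 119036305 to 119040969, minus strand) and Cbx6 and Cbx7 on chromosome 15 (79823896 to 79834688 and 79915807 to 79971119, both minus strand).

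The lead of Cbx6 depended on the gene length used. The counting tool is not given, so the longer length may not match the exons that were counted. The deposited length was 6290 bases and the GENCODE exons cover 10609. With the longer length Cbx6 had 28.4, 28.9 and 26.4 TPM, and Cbx7, with 34.5, 18.3 and 15.1 TPM on that scale, was above it in replicate 1. Npcd shares 563 exon bases with Cbx6 on the same strand and had 0 counts.

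Phc2 led the Polyhomeotic genes, whose SAM domains let PRC1 polymerise. Phc2 had 34.9, 45.2 and 34.2 TPM, Phc3 had 14.5, 9.21 and 8.45 TPM and Phc1 had 2.91, 2.58 and 2.80 TPM in replicates 1, 2 and 3. No values overlapped between these 3 genes. Phc2 held 66.7%, 79.3% and 75.2% of their sum. Without division by length its share was 57.4%, since Phc3 is 17485 bases long and Phc2 7064. In counts the order turned in replicate 1, with 2727 for Phc3 and 2656 for Phc2.

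The Pcgf genes define which PRC1 is built, and none of the 6 dominated. Pcgf2, which with Bmi1 forms canonical PRC1, was highest with 52.0, 46.3 and 39.7 TPM and 34.8% ± 4.98 of the sum (SD, n = 3). Pcgf1, the partner of Bcor and Kdm2b, followed with 38.9, 19.0 and 14.5 TPM. Bmi1 had 32.1, 18.9 and 19.7 TPM. The lead of Pcgf2 rests on division by length: in counts, Pcgf2 had 1978, 2235 and 2157 and the longer Pcgf3 1822, 2246 and 2553. Pcgf2 lay above Bmi1 in all 3 libraries, whereas Pcgf1 and Bmi1 changed order (log2 difference -0.04 ± 0.34).

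Pcgf3 hardly varied, with 17.7, 17.2 and 17.3 TPM. Pcgf6, which assembles with Mga and L3mbtl2, had 26.0, 8.25 and 8.96 TPM and was 3.02 times as high in replicate 1 as in the mean of the others. Pcgf5, a close relative of Pcgf3, had 11.4, 9.82 and 8.52 TPM. Of the 15 pairs in the family, 11 kept their order in every library, and below the step from Pcgf2 to Pcgf1 no neighbours in the order of means differed beyond their spread. Canonical Pcgf2 and Bmi1 summed to 69.6 ± 13.0 TPM and the variant genes Pcgf1, Pcgf3, Pcgf5 and Pcgf6 to 65.9 ± 24.4 TPM (SD, n = 3). The Pcgf5 and Pcgf6 levels depend on the deposited lengths of 1659 and 2098 bases, where the GENCODE exons cover 12629 and 5027. With the latter, Pcgf5 had 1.61, 1.38 and 1.20 TPM and Pcgf6 had 11.7, 3.69 and 4.01 TPM. Here too the longer lengths may not match the exons that were counted.

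Rybp was the highest of the 3 variant PRC1 partners among the members. Rybp, which takes the place of a Cbx protein, had 49.9, 42.3 and 42.0 TPM, and its relative Yaf2, not among the members, had 18.4, 19.7 and 23.6 TPM. Rybp was above Yaf2 in every library. Bcor, a corepressor, had 8.22, 8.04 and 6.48 TPM and Kdm2b, which recruits PRC1 to unmethylated CG, had 7.99, 7.41 and 6.45 TPM. Bcor and Kdm2b, which sit in the same complex, were within 0.05 ± 0.05 of each other on the log2 scale. They lay 5.34-fold (Bcor) below Rybp. Rybp-ps, a processed pseudogene 99.3% identical to Rybp over 681 bases, held at most 2 counts. Further near-identical copies are Gm5946 of Bmi1 with 0 counts, Gm12397 of Kdm2b with at most 10 counts, and Gm8930 of Pcgf1, which has no entry in the table.

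Of 15 further PRC1 parts on a fixed list, 14 had a mean of at least 1 TPM. The highest were Skp1a, a subunit of ubiquitin ligases that also joins the Bcor complex, with 370 ± 32.4 TPM, Max with 96.7 ± 12.8 TPM and Hdac1 with 89.6 ± 4.70 TPM (SD, n = 3), all 3 of which serve other complexes too. Of 10 deubiquitinases of H2A and their partners, 9 reached 1 TPM. Bap1, the catalytic subunit, had 42.0 ± 3.13 TPM, Hcfc1 33.5 ± 3.13 TPM and Ogt, an O-GlcNAc transferase, 40.2 ± 43.4 TPM. The Ogt mean rested on replicate 1, with 90.2 TPM against 17.5 and 12.9 TPM.

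Among the demethylases, Kdm6b outweighed Kdm6a, by far in replicates 2 and 3 and narrowly in replicate 1. Kdm6b, encoding JMJD3, had 22.8, 55.5 and 43.8 TPM in replicates 1, 2 and 3. Kdm6a, the X-linked gene for UTX, had 20.3, 10.3 and 10.9 TPM. Replicate 1 was thus the lowest library for Kdm6b and the highest for Kdm6a. The log2 ratio of Kdm6a to Kdm6b was -0.16, -2.32 and -1.91, a mean of -1.46 ± 1.15 (SD, n = 3, exact sign-flip p = 0.25, 0.25 after adjustment over the 5 pairs). Without replicate 1 the mean was -2.11. Without division by length it was -1.28 and the sign was no longer shared (exact sign-flip p = 0.5), since Kdm6a had 1787 and Kdm6b 1707 counts in replicate 1. Kdm6b held 52.8%, 84.3% and 80.0% of the summed TPM. Uty, the Y-linked relative with little demethylase activity, had 7.30, 3.68 and 4.25 TPM, and adding it to Kdm6a gave a mean ratio of -1.04 with the sign no longer shared by all libraries (exact sign-flip p = 0.5).

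Of 10 Kdm6 relatives and partners in the methyltransferase complex that holds UTX, 9 were detected. The highest were Dpy30 with 111 ± 8.15 TPM, Wdr5 with 45.3 ± 3.06 TPM and Rbbp5 with 33.4 ± 6.50 TPM (SD, n = 3), all core parts shared by the complexes that methylate H3K4. Pagr1a had no counts in any library, which leaves room for 0.195 TPM from counting error alone. Overlaps and copies were checked only for the members, so reads of Pagr1a lost in assignment cannot be told apart from absence.

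The spread of the members between libraries came mainly from replicate 1. That library also had the lowest share of mitochondrial counts, 4.26% against 6.20% and 5.83% in replicates 2 and 3. It had the most entries at 1 TPM or more, 14125 against 13091 and 13028. What set it apart was not tested. The SD of log2(TPM + 1) over the 3 libraries had a median of 0.35 over the 30 detected members and 0.27 over the 10498 entries of the same level range. With the libraries scaled by TMM, a method that aligns the bulk of genes, these medians were 0.27 and 0.25. Without replicate 1 they were 0.0911 and 0.117. Replicate 1 was the highest library for 26 of 31 members, replicate 2 for 5 and replicate 3 for none, while 59.6% of detected entries were highest in replicate 1. With TMM scaling replicate 1 was the highest for 21 of 31 members and 47.5% of detected entries, and the median entry's excess in replicate 1 went from 0.24 to 0.08 on the log2 scale. Ezh2, Pcgf6, Eed, Mtf2 and Pcgf1 exceeded the mean of the other libraries by more than 1 on the log2 scale in replicate 1, that is 5 of 31 members or 16.1%, near the 13.7% of all detected entries. Kdm6b alone lay more than 1 below, at -1.08. Under TMM scaling the counts past this limit were again 5 above and 1 below, beside 10.9% of detected entries above. Pcgf3, Phc1 and Cbx6 hardly moved, with log2 SDs of 0.02, 0.07 and 0.07.

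**Figure D3:**
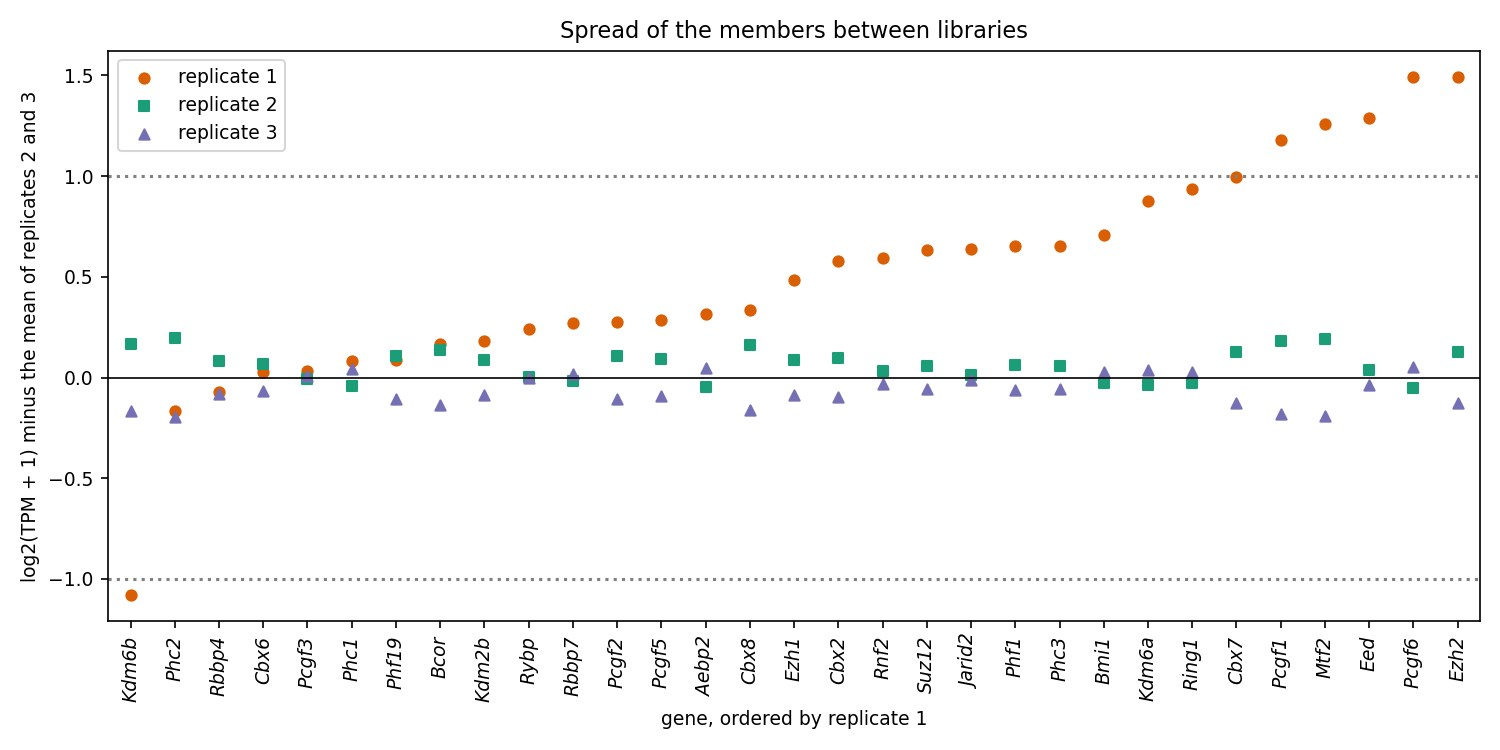
Each member's log2(TPM + 1) in the 3 libraries as the difference from the mean of replicates 2 and 3, ordered by replicate 1, with dotted lines at 1 and -1. The median SD over replicates 2 and 3 is 0.0911, while replicate 1 ranges from -1.08 for Kdm6b to 1.49 for Ezh2 and Pcgf6.

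GC content moved with this difference. Across detected entries with a transcript sequence, Spearman's rho between the excess in replicate 1 and the GC content of the longest transcript was -0.33, and over the 31 members it was -0.31 (descriptions across genes that share the libraries). Kdm6b, the member lowest in replicate 1, had 59.6% GC, and Ezh2 and Pcgf6, the highest there, had 44.4% and 44.5%. Ring1 and Cbx7, with 56.9% and 56.4% GC, were high in replicate 1 too. The part of GC content in the replicate difference was not tested.

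The authors' deposited table also gives a log2 fold change and adjusted p-value per gene. The labels do not say what was compared. Names of columns not used here point to libraries of the bulge, the stem cell niche of the follicle, as the other side. Its sign was read from the counts: all 2555 genes with 0 counts in the 3 libraries and a fold change had a negative one, so positive means higher in the sorted cells studied here. In the authors' deposited table, 9 of 31 members were higher and 11 lower at an adjusted p-value under 0.05, and 11 were not called. Over all 20274 genes with an adjusted p-value the shares were 23.6% higher and 32.0% lower, and over the 13506 detected ones 35.1% and 25.6%. The members' 29.0% and 35.5% are near these backgrounds. At an adjusted p-value under 0.01, 8 members were higher and 8 lower in the authors' deposited table, beside 19.9% and 26.3% of all genes. With a log2 fold change of at least 1 as well as an adjusted p-value under 0.05, 8 were higher and 7 lower, beside 19.0% and 27.3%. Their median log2 fold change in the authors' deposited table was -0.23, beside -0.36 over all 20274 genes and 0.25 over the detected ones. Cell type markers were called there too. All 5 suprabasal markers were higher in the authors' deposited table, with log2 fold changes from 1.38 to 5.78. Of 5 basal keratinocyte markers 3 were higher and 1 lower, and of 8 follicle stem cell markers 3 were higher and 3 lower. The part of cell make-up in the members' fold changes was not tested.

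Calls within the complexes were mixed, and differences between paralogs were not tested. Called genes of opposite sign occurred in the Polycomb-like, Phc and Pcgf families. Rbbp4 with Rbbp7, Jarid2 with Aebp2, and the called Cbx genes each shared a sign. For PRC2 the authors' deposited table listed 3 of 11 genes as higher and 6 as lower, beside 35.1% and 25.6% of detected genes. Phf1 was higher by a log2 fold change of 2.52 (adjusted p = 1.21e-26 in the authors' deposited table), whereas the other Polycomb-like genes, Mtf2 and Phf19, were lower at -1.74 and -1.34. Ezh2 was lower at -1.44 (adjusted p = 4.47e-04) and Ezh1 was listed at 0.03 (adjusted p = 0.917) in the authors' deposited table. Jarid2, Suz12 and Aebp2 were lower at -1.67, -1.01 and -0.86, and Rbbp4 and Rbbp7 were higher at 1.38 and 0.40 in the authors' deposited table, the last with an adjusted p of 0.0493. Eed was listed at -0.23 without a call.

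For PRC1, 6 of 18 genes were higher and 4 lower in the authors' deposited table, beside the same 35.1% and 25.6% of detected genes. Cbx6, Phc2, Ring1, Cbx8, Pcgf1 and Cbx7 were higher, from 2.42 for Cbx6 to 1.15 for Cbx7 in the authors' deposited table. Phc3 was lower at -2.40 (adjusted p = 6.57e-35), with Phc1 at -0.87, Pcgf3 at -0.64 and Rybp at -0.44 in the authors' deposited table. The genes with the highest mean TPM in each group of subunits went different ways: Phf1, Cbx6, Phc2, Ring1 and Rbbp7 were higher, Suz12, Aebp2 and Rybp lower, and Ezh1, Pcgf2 and Kdm6b not called in the authors' deposited table. Bmi1, Pcgf2, Pcgf5, Pcgf6, Rnf2, Cbx2, Kdm2b and Bcor had no call, with fold changes from -0.51 for Bcor to 0.45 for Pcgf2 in the authors' deposited table. Of the demethylases, Kdm6a was lower at -1.98 (adjusted p = 5.19e-16) and Kdm6b was listed at 0.54 without a call (adjusted p = 0.19) in the authors' deposited table. Uty was lower at -2.57 there.

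Related genes from the fixed lists were divided as well. In the authors' deposited table, the further PRC1 parts had 1 gene higher and 4 lower of 14 with a p-value. There, 1 of 10 H2A deubiquitinase genes was higher and 5 were lower, and of 9 genes around UTX with a p-value, 3 were higher and 6 lower. The shares over all genes were 23.6% higher and 32.0% lower, and over detected genes 35.1% and 25.6%, so the counts of these short lists are given without a reading. Of the 3 further PRC2 partners, Epop was higher at 3.21 and Lcor and Lcorl were lower at -3.41 and -2.44 in the authors' deposited table. Yaf2 was listed at -0.20 without a call and Bap1 was higher at 1.49 there. Of the 10 proliferation genes, 2 were higher and 5 lower in the authors' deposited table, Mki67 at -2.53.

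Transcript composition moved with these fold changes. Across 13485 detected genes, Spearman's rho between the fold change in the authors' deposited table and transcript GC content was 0.54, and with gene length it was -0.39. Over the 31 members the values were 0.64 and -0.37. Members that were higher had a median GC content of 54.9% (44.7 to 60.4) and those that were lower 43.7% (38.2 to 53.9). Of detected genes with a GC content under 45%, 10.4% were higher and 50.4% lower in the authors' deposited table, and of those at 55% or above, 65.3% were higher and 3.05% lower. Of 13 members under 45%, 1 was higher and 8 lower, and of 6 members at 55% or above, 4 were higher and none lower. The part of composition in the fold changes was not tested. As a measurement, each member's fold change was set against the median of the 500 detected genes nearest to it in GC content. Of 20 called members, 16 kept their sign relative to that median. The same share over all called genes was not computed, so this count is given without a reading. Among the 16, Cbx8, Pcgf3 and Suz12 lay close to the median, at 0.006, -0.04 and -0.13. Ring1 and Cbx7 fell just below it (-0.10 and -0.14) and Aebp2 and Rybp just above it (0.03 and 0.17). Phf19, Phc3, Jarid2, Phc1 and Kdm6a stayed below it by -2.22, -1.77, -1.75, -1.70 and -1.26, and Rbbp4, Cbx6 and Phf1 above it by 1.70, 1.26 and 1.04. Among members without a call, Bcor, Kdm6b and Cbx2 lay below it by -1.32, -1.13 and -0.98, so that Kdm6b was then close to Kdm6a.

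**Figure D4:**
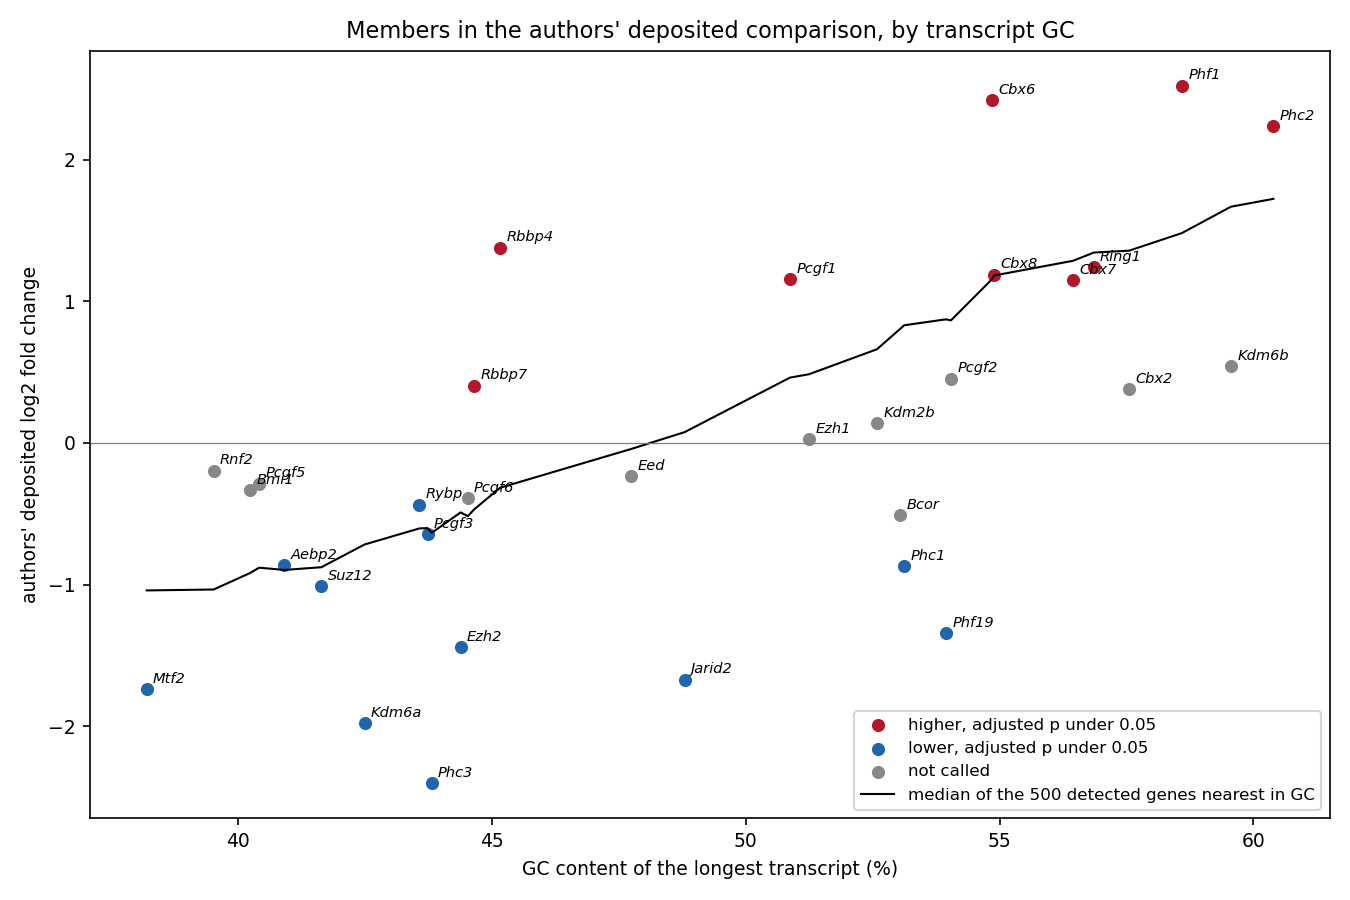
Log2 fold change from the authors' deposited table against the GC content (%) of the longest transcript for the 31 members, coloured by call, with the median of the 500 detected genes nearest in GC as a line. The line climbs with GC from below -1 to above 1, Phf1, Cbx6 and Rbbp4 lie over it and Phc3, Jarid2 and Phf19 under it.

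Few members carried H3K27me3. A single member of 31 (3.23%) had in the authors' deposited table an H3K27me3 value above 0, beside 8.06% of all entries and 3.52% of the 11761 protein-coding genes with at least 1 TPM. The members' share is near the latter. The marked member was Bcor (chromosome X, 12036740 to 12160355, minus strand), with 13619, a value whose unit is not stated and which no other gene shared. That is above the median of 7593 over the 3597 entries with a value in the authors' deposited table. Bcor was transcribed at 7.58 ± 0.958 TPM (SD, n = 3), at percentile 33.8 of detected entries. Because the deposited score multiplies this value, Bcor had a score of -8116 and the rank 19890 of 20274 in the authors' deposited table. Its fold change there was -0.51 with an adjusted p of 0.0671. The remaining members, with a value of 0, had scores from -82.1 for Phc3 to 65.4 for Phf1.

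Of 8 genes studied as Polycomb targets in skin, 7 had an H3K27me3 value above 0 in the authors' deposited table, beside 8.06% of all entries. The list was picked as known targets, with earlier results of these data known, so its counts are given without a reading. A mean of at least 1 TPM was reached by 2 of the 8, near the 30.6% of all entries. Of the 8, 3 were both marked and without a count, and this share over all entries was not computed. Atoh1 and Isl1, regulators of Merkel and other sensory cells, and Cdkn2a, an inhibitor of the cell cycle, had no counts. Levels of up to 0.131, 0.0703 and 0.237 TPM remain possible from counting error alone. Krt20, a Merkel cell keratin and the gene without a value, also had 0 counts (room for 0.144 TPM, counting error only). Sox2 had 1 count in all. Cdkn2b, the neighbour of Cdkn2a and likewise a cell cycle inhibitor, shared its H3K27me3 value of 49489 but had 4.00, 7.50 and 6.00 TPM in replicates 1, 2 and 3. It was higher by 2.66 in the authors' deposited table (adjusted p = 0.00131). Krt8 and Krt18, keratins of simple epithelia and Merkel cells, had 3.90 ± 0.365 and 0.492 ± 0.404 TPM (SD, n = 3), with H3K27me3 values of 5567 and 15403 in the authors' deposited table.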

How the data were processed

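Per the file headers, the values of each library are read counts, all whole numbers, and TPM, both deposited by the authors. TPM recomputed with the length column differed from theirs by at most 4.72e-06. FastQC, SAMtools, TopHat2, DESeq2, DESeq and the builds mm10 and GRCm38 are named, without roles, per the submitters' processing notes. The counting tool and strand setting are not given in the sources used here. A log2 fold change, an adjusted p-value, an H3K27me3 value and a score per gene were also deposited by the authors, with no test, unit or method stated. Multiplying the fold change by -log10 of the adjusted p-value, and the result by the H3K27me3 value with 1 added, gave the score (0 of 20274 were off by over 0.1%). Another 6 columns of per-sample values match no sample and were not used.

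The 31 members and all lists were chosen with earlier results of these data known. Every member is named. From each further list of complex parts, skin targets and proliferation genes, counts are given, and the 3 genes with the highest mean TPM, genes with 0 counts in all libraries, and Yaf2 and Uty are named. Marker lists are given by counts and sums, with markers at 0 counts named. Results of 1 further listed gene are not reported here. Other genes were named after their values were seen, among them Mki67, Mcm2, Tyms and Sox2.

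Ratios used log2(TPM + 1), which understates changes of low genes. Fixed pairs were tested over libraries by a two-sided exact sign-flip test. Detected means a mean of at least 1 TPM. Neighbours differed beyond their spread where the mean log2 difference exceeded its SD and had the same sign in every library. Coordinates, exon lengths and GC content of the longest transcript came from GENCODE M21 (GRCm38), in which 44392 identifiers were found. Exon lengths equalled the deposited length for 26 members. Exons of other genes overlapped those of 13 members, and near-identical copies (at least 95% over at least 300 bases, BLAST 2.17.0) were found for 5. Promoters came from RefSeq. TMM factors came from edgeR 4.0.16, and other steps used Python 3.11.15 with scipy 1.17.1. The comparisons with GC content, with GENCODE lengths and with Uty were added after seeing the data. The calculations were tested on simulated data.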

Additional observations from a re-analysis of the deposited data

How the results depend on the processing

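Detected members numbered 31 at a mean of at least 1 CPM and 29 at 5 TPM, in place of 30. Without division by length the log2 ratio of Rbbp4 to Rbbp7 reversed to 0.29, and the shares of Phf1 and Phc2 moved to 86.0% and 57.4%. With GENCODE exon lengths, an alternative chosen after seeing the data, the shares of Phf1 and Cbx6 moved to 90.8% and 33.2%. These alternatives differ only in the length used, and the GENCODE lengths may not match the exons that were counted. Requiring a log2 fold change of at least 1 left 7 lower members in place of 11, and the background of lower genes went from 32.0% to 27.3%. Leaving out each library in turn, the median SD of the members ranged from 0.0911 to 0.45, the log2 ratio of Ezh1 to Ezh2 from 2.13 to 2.66 and that of Kdm6a to Kdm6b from -2.11 to -1.03. Of 69 alternatives, 62 were the same in direction or within the spread, 6 moved and 1 reversed. No paired analysis was possible because the samples form 1 group. The comparison of the authors' deposited table could not be refitted, since columns of its other group were not used. Depth limits Phf19 and other genes with few counts.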
